A study of Homo sapiens with 6 samples.

Results

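The genes described here are the Wnt ligands, their receptors and their secreted inhibitors in MM1.S, an established human multiple myeloma cell line that is sensitive to glucocorticoids. They were chosen by symbol from the annotation of the arrays: the WNT, FZD, SFRP, DKK and DVL families, with FRZB, WIF1, LRP5, LRP6, RYK, ROR1, ROR2, PORCN and WLS. The rule used no measured value. Of 49 such symbols in RefSeq, 45 had at least 1 probe set annotated to that gene alone, 94 probe sets in all, out of 19775 genes with such a probe set on the array. WNT3 and FZD8 were read only by probe sets that carry a second symbol, and WNT3A and PORCN were not analysed here. The antisense and divergent transcripts FZD10-AS1, FZD4-DT and ROR1-AS1 fall outside the rule.

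RNA was measured on 6 single-colour Affymetrix arrays, 3 of cells infected with a lentivirus carrying an shRNA against beta-catenin and 3 of cells infected with a control shRNA vector. In both groups GFP-positive cells had been sorted and were then grown as triplicate cultures. All cells are of 1 line, the number of hairpins is not given in the labels, and the titles call the cultures biological replicates without describing separate infections, so p-values measure the spread between cultures, which may be technical. Some labels speak of embryos and maternal transcripts, which goes against the cell line and was not used.

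Wnt proteins are secreted lipid-modified ligands. The acyltransferase PORCN adds the lipid and WLS carries the ligand to the cell surface, where it binds a Frizzled receptor together with LRP5 or LRP6. The signal passes through Dishevelled (DVL) and spares beta-catenin from degradation, while ROR1, ROR2 and RYK serve as receptors of branches that do not use beta-catenin. Secreted proteins of the SFRP family, FRZB and WIF1 bind the ligands, and most of the DKK family bind the LRP co-receptors. In myeloma, DKK1 secreted by tumour cells is known for blocking bone formation by osteoblasts. The comparison asks whether RNA of this extracellular layer differed between cells given an shRNA against beta-catenin and cells given a control shRNA vector.

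The values are log2 expression with a floor at 4, and a value within 0.01 of the floor counts as at the floor. Array medians were 5.50 to 5.54 in beta-catenin shRNA cultures and 5.44 to 5.50 in control cultures. Pearson's r over probe sets, given as a description, was 0.986 to 0.990 within the shRNA group, 0.980 to 0.983 within the controls and 0.945 to 0.953 between groups. CTNNB1, the gene of beta-catenin, averaged 6.42 ± 0.10 in shRNA cultures and 7.75 ± 0.08 in control cultures (SD, n = 3 each), a change of -1.33 by its brightest probe set (SE 0.10; limma, adjusted p = 9.04e-12). A second probe set was called the opposite way, with a change of 0.33 and groups that did not overlap, and the other gave -0.07 and was not called (limma over all probe sets, adjusted p = 0.0390 and 0.716). The lower level was thus read by 1 of 3 probe sets, and averaging the 3 gave -0.36 (limma, adjusted p = 0.00238). All 12 plasma cell and myeloma markers lay at or above the filter for testing. They did not share a direction: 5 were called higher and 3 lower, beside 25.3% and 22.0% of all genes tested. Their summed signals were 13756 to 14029 in shRNA cultures and 11984 to 12264 in control cultures. Fibroblast markers summed to 536 to 589 in shRNA cultures and 518 to 586 in control cultures. Of the 8 read, 6 were tested, with 0 called higher and THY1 called lower. Of 4 osteoblast markers read, 2 were tested and 1 was called higher, the transcription factor RUNX2. The summed signal of the 4 was 560 to 580 in shRNA cultures and 367 to 451 in control cultures. The part of this in the changes below was not tested.

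Being above the floor did not set the Wnt genes apart. Of their 94 probe sets, 87 (92.6%) were above the floor on all 6 arrays, against 94.7% of all probe sets, and 0 members were at the floor on all arrays. The 7 probe sets that touched the floor belonged to 6 genes, DKK2, DKK3, SFRP2, WIF1, WNT6 and WNT11. For WIF1 and WNT11 these were the only probe sets. WIF1 read 4.06, 4.36 and 4.0 in shRNA cultures, against 4.17, 4.40 and 4.45 in control cultures. WNT11, a ligand of the branches without beta-catenin, read 4.17, 4.21 and 4.01 in shRNA cultures and 4.19, 4.0 and 4.0 in control cultures. Both genes lay close to the floor in both groups. The table holds no detection calls, and all 18 markers of T and NK cells, myeloid cells and epithelium that were read also lay above the floor on all arrays. A value above the floor was therefore not read as expression. A gene was tested when its brightest probe set had a mean over the 6 arrays at or above 5.49, the median of all probe sets; 8 of those 18 markers passed this filter too.

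Of the 45 Wnt genes, 27 were tested, 60.0% against 65.4% of all genes. Of the 27, 8 were called higher and 4 lower in beta-catenin shRNA cultures (limma, adjusted p under 0.05 over all genes tested). That is 44.4% called, beside 47.3% of all 12939 genes tested, so the count is close to the background. Higher calls made up 29.6% of the Wnt genes and 25.3% of all genes, and lower calls 14.8% of the Wnt genes and 22.0% of all genes. The median change was 0.11 over the 27 Wnt genes and 0.05 over all genes. The groups did not overlap for 14 of the 27 (51.9%), beside 54.4% of all genes. Out of the 27, the shRNA cultures were the higher ones in 8 and the lower ones in 6. The matching shares of all 12939 genes tested were 29.9% and 24.5%. Of the 12 called, 1 changed at least 2-fold, and the matching share of all genes is not given here. Without control replicate 1 the number of Wnt genes called higher was 5. Over all genes tested it was then 3129, against 3273 with all arrays. In bulk RNA, fewer cells that carry a transcript and less of it per cell cannot be told apart.

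**Figure D1:**
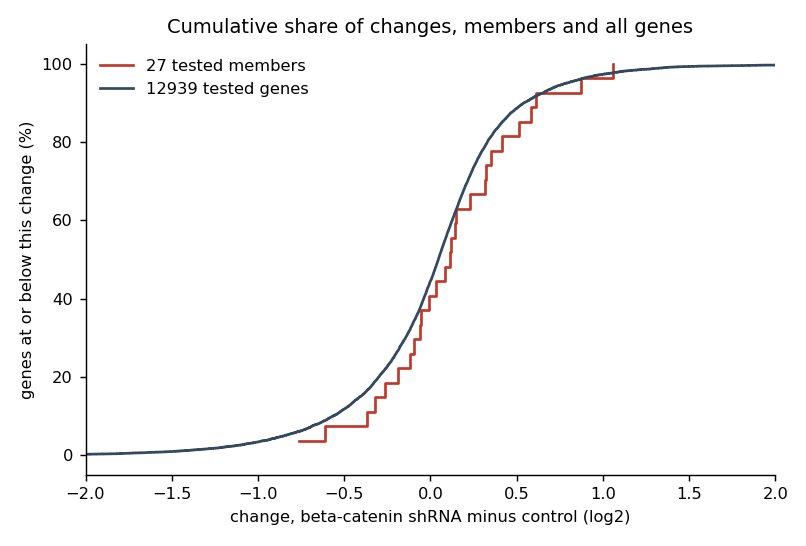
Cumulative share (%) of genes at or below each change (log2, beta-catenin shRNA minus control) for the 27 tested Wnt genes and for all 12939 tested genes. The Wnt curve runs within -0.76 and 1.06 and stays near the curve of all genes, with medians of 0.11 and 0.05.

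Among the 17 ligands with a probe set of their own, 9 were tested, and 4 were called higher and 1 lower, beside 25.3% and 22.0% of all genes. WNT4, a ligand known for its roles in kidney and reproductive tract development, read 6.19, 6.30 and 6.34 in shRNA cultures, against 5.23, 5.16 and 5.27 in control cultures. The 3 shRNA cultures were all above the 3 controls. The change was 1.06 (SE 0.12; 2.08-fold; limma, adjusted p = 7.65e-09), the largest of the 27. WNT4 reached the filter only through the shRNA cultures, since its control mean of 5.22 lay below it. The sources do not say how the table's floor was made. If it came from a constant added to every signal, a fold here understates the change of dim genes. The other WNT4 probe sets did not read this rise. One gave 5.55 ± 0.23 in shRNA cultures and 5.82 ± 0.24 in control cultures (SD, n = 3 each), a change of -0.27, and the dimmest gave 0.08, neither called over all probe sets (limma, adjusted p = 0.233 and 0.740). The probe set that rose bears an _s_ mark, which Affymetrix gives to sets that match more than 1 transcript, and without marked sets WNT4 turns to -0.27 and is not called.

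WNT10A, a ligand of skin, hair and tooth development, read 8.17, 8.23 and 8.07 in shRNA cultures, against 7.43, 7.10 and 7.33 in control cultures. The groups stood well apart. The change was 0.87 (SE 0.10; 1.83-fold; limma, adjusted p = 3.97e-08), and the call held under each of the 18 alternatives that gave a value, with changes of 0.56 to 0.94. The set that stood for WNT10A also bears an _s_ mark. Its second probe set, unmarked and below the filter, gave 0.24 and was not called over all probe sets (limma, adjusted p = 0.314). With unmarked sets first, WNT10A was therefore not tested.

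WNT6, the neighbour of WNT10A among protein-coding genes on chromosome 2, read 6.81, 6.69 and 6.71 in shRNA cultures and 6.30, 6.54 and 6.40 in control cultures. The groups did not overlap, and the change was 0.32 (SE 0.11; limma, adjusted p = 0.0149). Its 3 other probe sets gave 0.04, 0.05 and 0.10, and with the mean over all 4 the change was 0.13 and not called (limma, adjusted p = 0.226). The call was also lost without beta-catenin shRNA replicate 1 and without control replicate 1 (limma, adjusted p = 0.0815 and 0.0735). WNT10B, which promotes bone formation and holds back fat cell formation, read 6.55, 6.49 and 6.92 in shRNA cultures and 6.30, 6.46 and 6.26 in control cultures. Replicate 3 of the shRNA cultures was the highest, and the lowest shRNA culture stood only just above the highest control. The change was 0.32 (SE 0.12; limma, adjusted p = 0.0291), and it was lost in 8 of 19 alternatives, among them quantile normalization (limma, adjusted p = 0.124) and leaving out shRNA replicate 3 (change 0.18; limma, adjusted p = 0.229), control replicate 1 or control replicate 3 (limma, adjusted p = 0.0915 and 0.0853).

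WNT5B, a ligand of the branches without beta-catenin, was the ligand called lower. It read 7.02, 7.17 and 7.09 in shRNA cultures, against 7.47, 7.28 and 7.33 in control cultures, and the groups did not overlap. The change was -0.26 (SE 0.10; limma, adjusted p = 0.0383), and its other probe sets gave -0.15 and -0.73. The set with -0.73 was below the filter and was called over all probe sets (limma, adjusted p = 0.00225), so all 3 sets were lower in shRNA cultures. All 3 bear an _s_ mark. The gene's call was lost in 7 of 19 alternatives, among them leaving out shRNA replicate 1 or 3 and control replicate 1 or 3 (limma, adjusted p = 0.0649 to 0.173). Its relative WNT5A lay below the filter and gave -0.25 and -0.24 on its 2 probe sets, neither called (limma, adjusted p = 0.203 and 0.261).

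WNT7B, WNT8A, WNT9B and WNT16 were tested and not called. WNT9B turned on 1 array: it read 6.70, 6.31 and 6.50 in shRNA cultures and 4.8, 6.63 and 6.55 in control cultures. The value of 4.8, in control replicate 1, stood far below the other 5. The change of 0.51 (95% interval -0.00 to 1.03) became -0.08 without that array. WNT8A changed by 0.03 (95% interval -0.19 to 0.25), WNT16 by -0.06 (-0.30 to 0.18) and WNT7B by 0.12 (-0.11 to 0.36). Averaging both WNT7B probe sets gave a called change of 0.23 (limma, adjusted p = 0.0391). The ligands below the filter were WNT1, WNT2, WNT2B, WNT5A, WNT7A, WNT8B, WNT9A and WNT11.

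WLS, the carrier of Wnt ligands out of the cell, was the untested gene nearest to the filter, with a mean of 5.45. By its brightest probe set it read 5.66, 5.71 and 5.63 in shRNA cultures, against 5.45, 5.01 and 5.21 in control cultures. The 3 shRNA cultures were higher than every control. Over all probe sets, this set changed by 0.44 (SE 0.13; limma, adjusted p = 0.0199) and a second by 0.47 (SE 0.12; limma, adjusted p = 0.00841), while the dimmest gave 0.34 and was not called (limma, adjusted p = 0.231). The brightest set was no longer called without shRNA replicate 1 or 2 or without control replicate 2 (limma, adjusted p = 0.0611, 0.0800 and 0.0760). WNT2B, the next below the filter with a mean of 5.43, gave 0.30 and was not called (limma, adjusted p = 0.142). Just inside the filter lay WNT16 with a mean of 5.52 and FZD2 with 5.54.

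**Figure D2:**
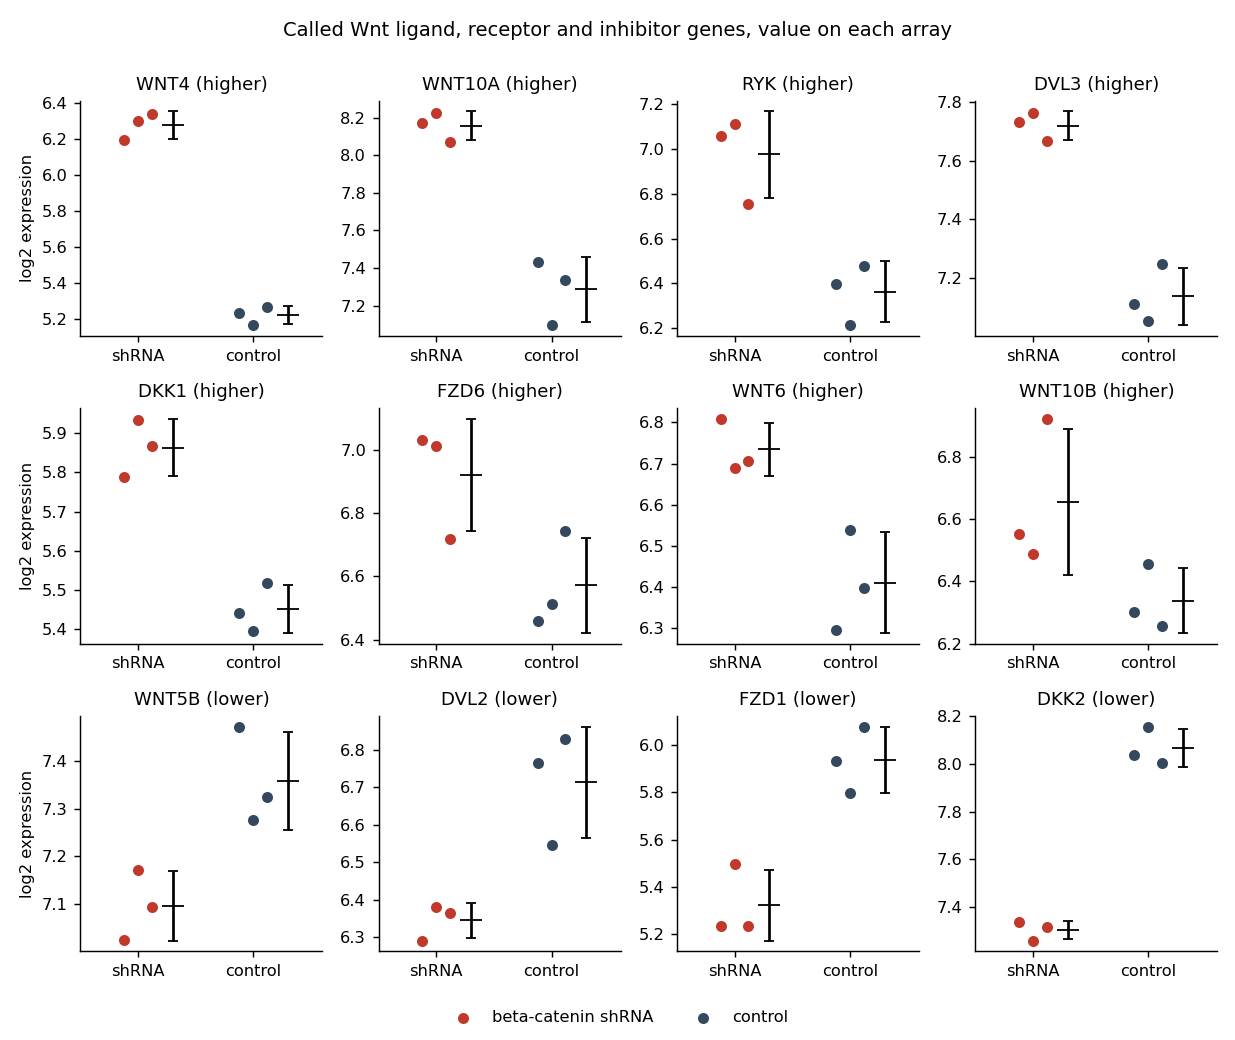
Log2 expression on each array for the 12 called Wnt genes, 3 beta-catenin shRNA arrays (red) left of 3 control arrays (dark blue), with mean ± SD as bars and an axis of its own for each gene, not starting at 0. The groups overlap only for FZD6; WNT10B has 1 high shRNA array (6.92).

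Of the 9 Frizzled receptors with a probe set of their own, 7 were tested, and 1 was called higher and 1 lower, beside 25.3% and 22.0% of all genes. FZD1 read 5.24, 5.50 and 5.24 in shRNA cultures, against 5.93, 5.80 and 6.08 in control cultures. Every shRNA culture was below every control, with a change of -0.61 (SE 0.12; 1.53-fold lower; limma, adjusted p = 1.37e-04). FZD1 reached the filter only through the control cultures, since its mean of 5.32 in shRNA cultures lay below it. A second probe set, of nearly the same mean, varied widely within both groups and gave 5.76 ± 0.61 in shRNA cultures and 5.35 ± 0.44 in control cultures (SD, n = 3 each), and the dim set gave -0.16. Averaging the 3 sets left FZD1 at -0.12, short of the threshold (limma, adjusted p = 0.306). FZD6, a receptor of planar cell polarity, read 7.03, 7.01 and 6.72 in shRNA cultures and 6.46, 6.51 and 6.74 in control cultures. The groups overlapped, since the lowest shRNA culture lay below the highest control. The change was 0.35 (SE 0.11; limma, adjusted p = 0.0131), and the call was lost without shRNA replicate 1 or 2 or control replicate 1 (limma, adjusted p = 0.0659 to 0.0769).

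FZD2, FZD3, FZD4, FZD5 and FZD7 were not called, with changes of -0.19 to 0.15. FZD3, read by 4 probe sets, gave 0.08 (95% interval -0.13 to 0.30) on the brightest. FZD4, a receptor of retinal vessels, gave -0.01 on its brightest probe set, while the dimmer one read 5.24, 5.03 and 4.91 in shRNA cultures, against 4.36, 4.56 and 4.58 in control cultures. On that dim set the groups did not overlap and the change was 0.56 (SE 0.13; limma, adjusted p = 0.00617 over all probe sets). FZD4 was called higher with the mean of both sets (change 0.28; limma, adjusted p = 0.0146). FZD9 and FZD10 lay below the filter, at means of 4.84 and 4.92.

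Among the 4 co-receptors tested, RYK was called higher, beside 25.3% of all genes, and LRP5, LRP6 and ROR1 were not called. RYK, a receptor with a Wnt-binding domain and an inactive kinase domain, read 7.06, 7.11 and 6.76 in shRNA cultures, against 6.40, 6.21 and 6.48 in control cultures. The change was 0.61 (SE 0.12; 1.53-fold; limma, adjusted p = 5.98e-05). All 3 RYK probe sets were higher in every shRNA culture than in any control, with 0.32 and 0.35 on the other 2 (limma over all probe sets, adjusted p = 0.0420 and 0.0575). None of the 3 is unmarked. The brightest and the set with 0.35 bear an _s_ mark, and the set with 0.32 an _x_ mark, for probes that may match other sequences. The rule with unmarked sets first thus kept the same set for RYK. RYK kept its call under all 19 alternatives, at changes of 0.42 to 0.72.

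LRP6 read 6.97, 7.07 and 6.12 in shRNA cultures and 6.93, 6.94 and 7.26 in control cultures. One array, shRNA replicate 3, stood apart from the other 5. The change of -0.32 (95% interval -0.65 to 0.00; limma, adjusted p = 0.0951) was -0.02 without it, and -0.45 and -0.50, both called, without shRNA replicates 1 and 2 (limma, adjusted p = 0.0105 and 0.0120). The other LRP6 probe sets gave 0.02 and 0.40. LRP5 changed by -0.06 (95% interval -0.29 to 0.17) and ROR1 by 0.14 (-0.15 to 0.43). ROR2 lay below the filter with a mean of 5.15.

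The 3 Dishevelled genes, whose proteins pass the signal on from the receptors, were all tested and did not share a direction. Of these, 1 was called higher and 1 lower, beside 25.3% and 22.0% of all genes. DVL3 read 7.73, 7.76 and 7.67 in shRNA cultures, against 7.11, 7.05 and 7.25 in control cultures, a change of 0.58 (SE 0.10; 1.5-fold; limma, adjusted p = 1.82e-05). DVL2 read 6.29, 6.38 and 6.36 in shRNA cultures, against 6.77, 6.55 and 6.83 in control cultures, a change of -0.37 (SE 0.11; limma, adjusted p = 0.00660). In neither gene did the groups overlap. DVL2's second probe set gave -0.31, with groups again apart (limma over all probe sets, adjusted p = 0.0585), and the call held under all 19 alternatives. DVL3's second set, with an _x_ mark for probes that may match other sequences, gave -0.23 and was not called (limma, adjusted p = 0.275), and averaging both sets left DVL3 at 0.18, short of the threshold (limma, adjusted p = 0.112). DVL1 read 6.38, 6.31 and 6.25 in shRNA cultures and 6.17, 5.84 and 6.24 in control cultures. Its groups did not overlap, yet the change of 0.23 (95% interval -0.01 to 0.47) was not called (limma, adjusted p = 0.112).

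**Figure D3:**
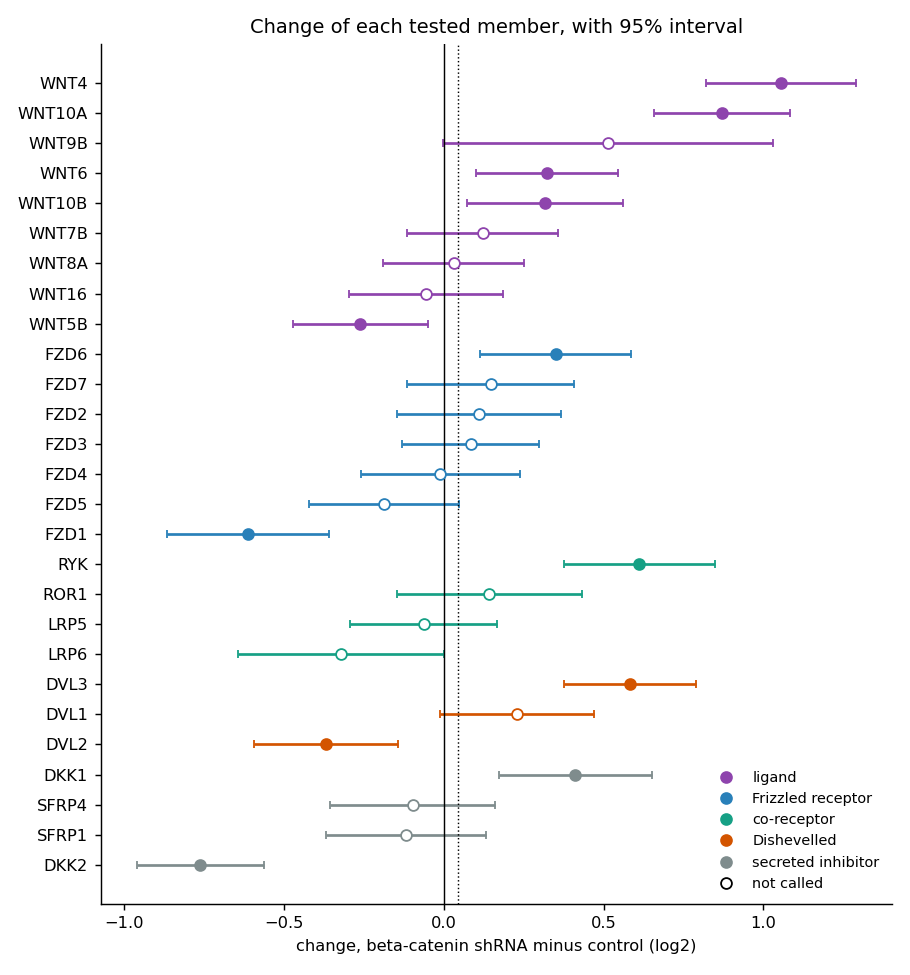
Change (log2, beta-catenin shRNA minus control) of each of the 27 tested Wnt genes, ordered by role, with the 95% interval of the limma fit; filled points were called, and the dotted line is the median of all genes tested (0.05). Ligands run from -0.26 to 1.06, Frizzled receptors from -0.61 to 0.35 and secreted inhibitors from -0.76 to 0.41.

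Of the 10 secreted inhibitors, 4 were tested, and 1 was called higher and 1 lower, beside 25.3% and 22.0% of all genes. The 2 called, both of the DKK family, thus went opposite ways. DKK1 read 5.79, 5.93 and 5.87 in shRNA cultures, against 5.44, 5.40 and 5.52 in control cultures. Every shRNA culture was above every control, with a change of 0.41 (SE 0.12; 1.33-fold; limma, adjusted p = 0.00440). DKK1 had 1 probe set, and the call held under all 18 alternatives that gave a value, with changes of 0.21 to 0.59. It too reached the filter only through the shRNA cultures, since its control mean of 5.45 lay just below it.

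DKK2, which can act as an inhibitor or a weak activator depending on the co-receptors present, read 7.34, 7.26 and 7.32 in shRNA cultures, against 8.04, 8.16 and 8.0 in control cultures. The groups stood far apart, with a change of -0.76 (SE 0.10; 1.70-fold lower; limma, adjusted p = 1.48e-07), the largest fall of the 27. The call held under all 19 alternatives, at changes of -0.82 to -0.31. The other DKK2 probe set was close to the floor in both groups, with 4.32, 4.19 and 4.16 in shRNA cultures and 4.15, 4.07 and 4.0 in control cultures, so the fall was read by 1 of 2 sets.

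SFRP1 and SFRP4 were tested and not called, with changes of -0.12 (95% interval -0.37 to 0.13) and -0.10 (-0.36 to 0.16). The inhibitors below the filter were DKK3, DKK4, FRZB, SFRP2, SFRP5 and WIF1. DKK3 was read by 6 probe sets, none of which was called (limma over all probe sets, lowest adjusted p = 0.493), and FRZB by 4, none called (lowest adjusted p = 0.167). Over all 15 tested genes that were not called, the 95% intervals of 13 stayed within 0.5 of 0 in both directions, the exceptions being LRP6 and WNT9B.

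The probe sets of the Wnt genes were also counted 1 by 1, bright and dim together. Over all 54613 probe sets, 23.2% were called, 13.3% higher and 9.95% lower. Of the 94 of the Wnt genes 15 (16%) were called, 11 of them higher (11.7%) and 4 lower (4.26%). With each array centred on its median, 8 were called higher and 7 lower. The share called over all probe sets under this centring is not given here. Counted by gene and after the filter, a different unit, the same centring gave 2765 higher and 3316 lower over all genes tested. Without it these were 3273 and 2841. Of the 12 called genes, 3 (DKK1, FZD6 and WNT10B) had 1 probe set. The sets that stood for WNT10B and WNT5B were not called over all probe sets (limma, adjusted p = 0.0879 and 0.0654). Of the other 9 genes, 2 (RYK and WNT5B) had another set called the same way, and 0 had one called the opposite way. For 4 (WNT4, DVL3, FZD1 and DKK2) another set had the opposite sign without being called. DKK1, DKK2, DVL2, RYK and WNT10A kept their call and direction under every alternative that gave a value, and the other 7 did not. For WNT10A the rule with unmarked sets first gave no value, and for RYK every set bears a mark.

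**Figure D4:**
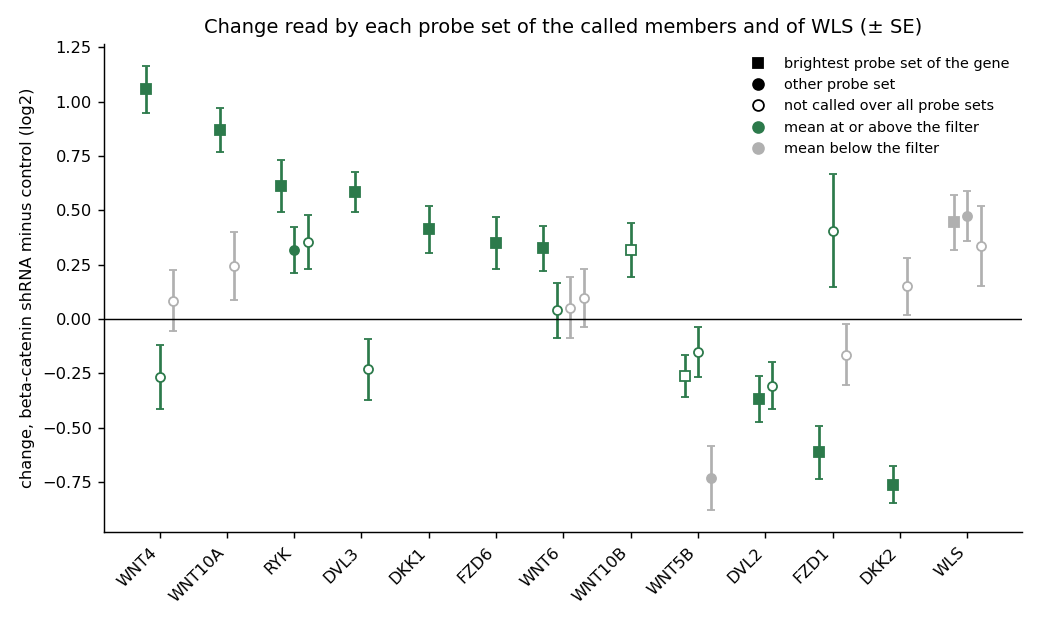
Change (log2, beta-catenin shRNA minus control, ± SE) read by every probe set of the 12 called Wnt genes and of WLS, ordered by brightness within a gene; squares are the set that stood for the gene, filled symbols were called over all probe sets, and grey sets lay below the filter. RYK's 3 sets (0.61, 0.32 and 0.35) and WLS's 3 sets (0.44, 0.47 and 0.34) lie on the same side of 0, while WNT4's lie on both sides (1.06, -0.27 and 0.08).

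Promoter sequence was searched for the 7-letter cores of TCF/LEF sites, the DNA sites of the factors that beta-catenin works with. The letters searched were the run CTTTGAA, the run CTTTGAT, the run CTTTGTA and the run CTTTGTT, of which no pair can match at the same start, on both strands, in the 250 bases before the start of each gene as RefSeq gives it (GRCh38.p14). Of 35116 promoters, 12% held 1 or more. Among the Wnt genes, 32 had a promoter sequence in the table, and DKK1 was the 1 that held a match, beside 14.3% of 27273 other genes counted the same way. The promoter of DKK1 held 2 matches, starting 95 and 76 bases before the start. It is shown with those of WNT10A and WNT4, the ligands with the largest rises, which held none; capitals mark the matches, and the sequences run 5′ to 3′ on the gene's strand. A match is a run of letters and not a site of binding, and no match says only that these letters are not in this window.
DKK1, chr10:52314031-52314280, plus strand, G and C 62.8%: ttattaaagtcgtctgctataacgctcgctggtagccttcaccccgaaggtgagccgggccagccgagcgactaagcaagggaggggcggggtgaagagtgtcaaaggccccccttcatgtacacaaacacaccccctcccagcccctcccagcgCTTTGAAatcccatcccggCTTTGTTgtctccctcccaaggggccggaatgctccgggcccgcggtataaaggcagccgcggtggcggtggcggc
WNT10A, chr2:218880602-218880851, plus strand, G and C 77.6%: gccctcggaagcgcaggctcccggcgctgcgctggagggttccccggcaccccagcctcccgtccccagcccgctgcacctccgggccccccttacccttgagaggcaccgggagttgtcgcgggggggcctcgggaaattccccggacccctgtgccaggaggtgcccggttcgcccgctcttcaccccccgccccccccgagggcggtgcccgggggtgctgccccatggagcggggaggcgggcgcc
WNT4, chr1:22143098-22143347, minus strand, G and C 86.8%: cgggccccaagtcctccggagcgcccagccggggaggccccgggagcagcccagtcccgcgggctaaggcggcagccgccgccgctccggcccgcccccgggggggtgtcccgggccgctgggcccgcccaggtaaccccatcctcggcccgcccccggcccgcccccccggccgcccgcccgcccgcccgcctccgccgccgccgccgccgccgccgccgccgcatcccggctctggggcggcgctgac

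Further genes of the pathway were taken from 4 lists, whose counts stand beside 25.3% of all genes called higher, 22.0% called lower and a median change of 0.05. Of 36 other extracellular modulators, 13 were tested, 2 called higher and 2 lower, with a median change of -0.01. The 2 that rose were SULF1 and SULF2, sulfatases that trim heparan sulfate at the cell surface and so alter how it holds Wnt ligands. SULF1 read 7.75, 7.96 and 7.70 in shRNA cultures, against 6.86, 6.80 and 6.92 in control cultures, a change of 0.94 (SE 0.10; limma, adjusted p = 9.93e-09). SULF2 read 9.17, 9.35 and 9.24 in shRNA cultures, against 8.61, 8.34 and 8.45 in control cultures, a change of 0.79 (SE 0.09; limma, adjusted p = 1.18e-08). The groups did not overlap in either gene. The BMP and Wnt antagonist SOSTDC1 changed by -0.34 and the heparan sulfate carrier SDC1, also the plasma cell antigen CD138, by -0.20 (limma, adjusted p = 0.0140 and 0.0331). SOSTDC1 was not called without shRNA replicate 1 (limma, adjusted p = 0.0918), and SDC1 was not called without shRNA replicate 1 or 3 or control replicate 1 (limma, adjusted p = 0.107, 0.160 and 0.0568).

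Of 37 intracellular components of the canonical branch that were tested, 15 were called higher and 3 lower (median change 0.18). The 3 called lower include CTNNB1, the gene that the shRNA targets. CXXC4, whose protein binds Dishevelled and inhibits Wnt signalling, read 7.44, 7.5 and 7.47 in shRNA cultures, against 6.11, 5.86 and 6.14 in control cultures, a change of 1.44 (SE 0.11; limma, adjusted p = 4.15e-12). Every shRNA culture was well above every control. Beside CTNNB1, the casein kinase gene CSNK1E changed by 0.81 and the DNA-binding factor LEF1 by -0.75 (limma, adjusted p = 2.45e-07 and 5.80e-08). Of 34 components of the planar polarity and calcium branches tested, 9 were called higher and 3 lower (median change 0.10). The calcineurin subunit PPP3CA, the kinase CAMK2A and the protein kinase C gene PRKCB rose by 0.74, 0.66 and 0.53, and the GTPase RHOA fell by 0.39 (limma, largest adjusted p of the 4 = 2.27e-04). Of 22 genes of ligand transport and endocytosis tested, 5 were called higher and 9 lower (median change -0.16). Among them VPS35, a subunit of the retromer that recycles WLS, changed by -0.45, the adaptor subunit AP2S1 by -1.63, the caveolin CAV1 by -0.54 and the cargo receptor TMED2 by 0.43 (limma, largest adjusted p of the 4 = 4.63e-05). Another retromer subunit, VPS26A, went the other way with a change of 0.48 (limma, adjusted p = 1.45e-04), while VPS26B and VPS29 gave -0.09 and -0.25 and were not called; these 3 were added after their values were seen.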

How the data were processed

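RNA of MM1.S cultures, 3 with a beta-catenin shRNA and 3 with a control shRNA, was measured on 1-colour arrays; groups and replicate numbers come from the sample titles. The authors deposited a table of log2 expression, with 1 value for each probe set on each array and a floor at 4, which is the log2 of a signal of 16. MAS5 and PLIER appear in the submitters' processing notes, with no version or role. The sources used here do not say which of them made the values or how the arrays were scaled. Values were used as deposited.

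Of 54613 non-control probe sets, 41091 had 1 gene symbol in the platform annotation, 1801 several and 11721 none; 41037 of the first kind were found by gene ID in RefSeq (GRCh38.p14). A gene was read by its brightest probe set with 1 symbol and tested if that mean over 6 arrays reached the median of all probe set means, 5.49 (12939 of 19775 genes). This filter removed 18 of the 45 Wnt genes. Groups were compared with limma 3.58.1 in R 4.3.3 (lmFit, eBayes with an intensity trend), two-sided, with Benjamini-Hochberg adjustment over all genes tested and a threshold of 0.05. A second fit took all probe sets with no filter. Intervals are 95% and come from the moderated fit. Changes are beta-catenin shRNA minus control.

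A value was taken as at the floor within 0.01 of 4, since each array's exact lowest value occurs once; this tolerance was set after seeing the table. Summed marker signals are sums of the linear signal after the floor's 16 was taken off. The fit was tested on simulated data. Precision is limited by the number of arrays. The members, lists and tests were chosen with earlier results of these data known. Every Wnt gene with a probe set of its own is named, and up to 4 called genes of each further list by adjusted p. The 19 alternatives changed 1 choice each: the replicate number as a block, 3 scalings between arrays, 2 filters, 2 probe set rules, 3 variance models, 2 offsets of the log scale, and each of the 6 arrays left out.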

Additional observations from a re-analysis of the deposited data

Results flagged for a closer look

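A probe set annotated to both WNT3, a ligand, and LOC101929777 gives neither gene a value of its own and so entered no comparison of genes. It read 6.18, 6.19 and 6.09 in beta-catenin shRNA cultures, against 5.33, 5.58 and 5.56 in control cultures. It stands here because all 3 shRNA arrays were above all 3 controls, with a change of 0.661 (SE 0.11; limma over all probe sets, adjusted p = 5.53e-04). The other 2 probe sets with both symbols gave 0.14 and 0.04, with groups that overlapped.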

How the results depend on the processing

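Of the 12 called Wnt genes, 5 kept direction and call under every alternative that gave a value. Changes turned sign in 2 cases with a call on either side: WNT4 gave -0.27 with unmarked probe sets first, and FZD4 gave 0.28 with the mean over probe sets, where it was called; a different probe set enters there by construction. In 40 further cases an uncalled change turned sign and stayed uncalled. The counts of Wnt genes called were 8 higher and 4 lower. Leaving out 1 array gave 5 to 9 higher and 3 to 5 lower, with 5 higher without control replicate 1. Over all genes tested, leaving out 1 array gave 2723 to 3156 higher and 2494 to 3053 lower, against 3273 and 2841. The counts over all genes also moved under other settings. They were 2338 higher and 2095 lower without moderation, and 3222 and 2770 without the intensity trend. The 75th percentile filter gave 2344 and 2321 of 7615 genes. Lower calls were 3316 under centring, 3263 under cyclic loess and 3203 under quantile normalization. Matching counts over all probe sets are not given here. Wnt gene probe sets called higher numbered 11, but 5 without moderation and 6 to 11 when 1 array was left out (7 and 6 without shRNA replicates 1 and 2). Those called lower numbered 4, but 7 under centring, cyclic loess and quantile normalization and 2 without moderation. Extracellular modulators called lower numbered 2, but 1 with the 75th percentile filter, without the intensity trend, without moderation and with the replicate block, and 0 to 2 when 1 array was left out (0 without shRNA replicate 1, and 1 without shRNA replicate 3 or control replicate 1). Planar polarity and calcium genes called higher numbered 9, but 5 with the 75th percentile filter, which tests fewer genes; those called lower numbered 3, but 5 under centring. Transport genes called higher numbered 5, but 3 without moderation. Elsewhere the cause was not tested.

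With the replicate number as a block, 9 Wnt genes were called higher and 4 lower, beside 2897 higher and 2597 lower over all genes tested. LRP6 (change -0.32) and WNT9B (0.51) were then called and WNT5B (-0.26) was not (limma, adjusted p = 0.0425, 6.04e-04 and 0.108). The numbers did not pair the samples: deviations of same-numbered arrays from their group means correlated at -0.07, -0.22 and -0.33. Dim signal limits the values: 18 of the 45 Wnt genes lay below the filter, and a floor added to every signal would shrink their changes.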

Other observations

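The 3 probe sets shared by FZD8 and the microRNA gene MIR4683 likewise entered no comparison of genes. The brightest read 5.65, 5.69 and 5.98 in beta-catenin shRNA cultures, against 6.05, 6.08 and 6.19 in control cultures. The groups did not overlap, and the change of -0.33 was not called over all probe sets (limma, adjusted p = 0.0605). The other 2 gave 0.16 and -0.17, with groups that overlapped.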
